A study of Rattus norvegicus with 4 samples.

Results

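Matrix metalloproteinases (Mmp genes) and their tissue inhibitors (Timp genes) were examined on liver expression arrays from 4 groups of rats. Of 9 genes listed for this family, Timp1, Timp2, Timp3, Mmp2, Mmp9, Mmp12, Mmp13, Mmp14 and Mmp27, 8 were found among 20027 measured genes, each by the symbol in the deposited files and each with 1 probe. Mmp2 was not found by symbol or by Entrez identifier, and a probe that the files only describe as an MMP-2 fragment is given separately and not counted. Of the 8 genes, 7 were above background on all 4 arrays, and Mmp13 was above background on 1.

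The rats were of the Sprague-Dawley strain. All 4 groups received diethylnitrosamine, a liver carcinogen, into the peritoneum at 10 weeks of age, and then a diet lacking methionine and choline for 12 weeks, which brings on fatty, inflamed and scarred liver. The groups were transgenic rats on that diet, transgenic rats with luteolin (a plant flavonoid) added to it, wild-type rats on the diet, and wild-type rats with luteolin added. The transgene is a dominant negative form of connexin 32, a gap junction protein of hepatocytes, so it acts on top of the endogenous gene. The labels name no promoter for it, no luteolin dose and no sex, and they do not say whether RNA of several rats was pooled. No group was left on a normal diet or without the carcinogen, so every value below belongs to an injured liver. Each group had 1 array, so no difference between 2 arrays has a replicate check, and "higher" and "lower" describe those arrays.

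Matrix metalloproteinases are zinc-dependent enzymes that cut collagens, elastin and other proteins of the extracellular matrix. Most are secreted as inactive precursors, and Timp proteins block the active enzymes by occupying their catalytic site. In scarring liver, activated stellate cells and macrophages are the main sources of many of these enzymes and inhibitors, and a rise of Timp1 is a well-known feature of fibrosis in rodents.

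Between 72.5% and 78.7% of 20174 probes were above background per array, and the background constant was 37.47 to 39.81 intensity units. Of the 8 hepatocyte markers listed, 6 were measured, and all lay far above background, with log2 intensities from 11.76 for Arg1 to 15.62 for Alb. In a bulk sample, fewer cells of one type and less RNA per cell cannot be told apart. Levels are log2 normalized intensities, differences are log2 ratios between 2 arrays, and 1.5-fold (0.58 on the log2 scale) was the size used for counts.

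The 4 genes that differed most with luteolin were Timp1, Timp2, Mmp12 and Mmp27, and their upstream sequences are shown for that reason. Upstream windows of 250 bases were available from RefSeq (build GRCr8) for 6 of the 9 genes. They are printed from 5′ to 3′ on the gene's own strand, ending at the base before the annotated start. Capitals mark exact matches of TGANTCA, the letters of a site bound by AP-1 factors, which are known to act on many Mmp promoters.
Timp1 (chrX:3771123-3771372, minus strand): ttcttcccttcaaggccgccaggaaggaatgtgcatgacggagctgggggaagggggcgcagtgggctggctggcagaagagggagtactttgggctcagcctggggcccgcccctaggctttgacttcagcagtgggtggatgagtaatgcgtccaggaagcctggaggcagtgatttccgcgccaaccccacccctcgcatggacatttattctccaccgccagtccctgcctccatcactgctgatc
Timp2 (chr10:104089215-104089464, minus strand): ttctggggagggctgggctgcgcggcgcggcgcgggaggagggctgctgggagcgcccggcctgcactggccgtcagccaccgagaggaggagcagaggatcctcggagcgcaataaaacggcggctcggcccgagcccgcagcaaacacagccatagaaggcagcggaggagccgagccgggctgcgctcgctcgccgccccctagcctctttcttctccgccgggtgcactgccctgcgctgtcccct
Mmp12 (chr8:12866402-12866651, plus strand): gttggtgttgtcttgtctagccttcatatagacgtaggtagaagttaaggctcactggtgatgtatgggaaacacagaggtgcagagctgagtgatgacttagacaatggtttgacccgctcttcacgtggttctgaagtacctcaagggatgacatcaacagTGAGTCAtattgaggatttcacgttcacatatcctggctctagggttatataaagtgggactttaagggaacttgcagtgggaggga
Mmp27 (chr8:13030502-13030751, plus strand): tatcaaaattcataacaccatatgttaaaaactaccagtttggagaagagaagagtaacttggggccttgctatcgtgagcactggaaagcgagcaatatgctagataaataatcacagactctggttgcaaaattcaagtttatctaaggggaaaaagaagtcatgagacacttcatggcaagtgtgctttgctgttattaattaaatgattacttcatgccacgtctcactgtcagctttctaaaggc

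Mmp12 was the one gene of these 4 whose window held TGANTCA, as TGAGTCA starting 87 bases before the start. The window of Mmp13, the gene near background, held it as TGACTCA at 66 bases. Over both strands, 6.34% of 33469 upstream windows of the same length held TGANTCA. The TATA letters TATAAA stood 39 bases before the start of Mmp12 and 47 bases before that of Mmp13, and 12.9% of all windows held them on either strand. AGGAAG, a core of ETS factor sites, occurred in Timp1 at 230 and 94 bases and in Mmp13 at 95 bases before the start, against 29.5% of all windows. No site of one motif overlapped a site of another. These are matches of letters, and no binding was measured. Only exact matches were counted, so TGAGTAA in the Timp1 window, which differs from TGANTCA by a letter, is not among them. The search therefore does not show that a window lacks an AP-1 site.

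The inhibitors are described first. Timp1, which inhibits most secreted metalloproteinases, had raw intensities of 507.02 in transgenic rats without luteolin and 210.47 with it, and of 278.52 and 194.65 in wild-type rats. On the log2 scale its levels were 8.86, 7.99, 8.32 and 7.58 in the same order. Both arrays with luteolin lay below both arrays without it, and within each diet the transgenic array was the higher. Its log2 ratio with luteolin was -0.87 in transgenic rats, 54.6% of the level without luteolin, and -0.74 in wild-type rats, 59.7% of that level.

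Timp2, which inhibits these enzymes and also takes part in the activation of proMMP-2 at the cell surface, had raw intensities of 247.61 without and 118.61 with luteolin in transgenic rats, and 133.05 without and 91.75 with it in wild-type rats. Its log2 levels were 7.86, 7.19, 7.32 and 6.65. The arrays fell in the same order as for Timp1. Its luteolin ratios were nearly equal, -0.67 in transgenic rats and -0.67 in wild-type rats, or 1.59-fold lower in each.

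Timp3, which stays bound to the matrix and also inhibits the shedding enzyme ADAM17, differed less. Its raw intensities were 107.69 without and 79.38 with luteolin in transgenic rats, and 74.98 without and 71.45 with it in wild-type rats, at 1.86 to 2.71 times background. The log2 levels were 6.78, 6.64, 6.57 and 6.36, so the transgenic luteolin array lay above the wild-type array and the diets overlapped. Its luteolin ratios were -0.14 in transgenic and -0.20 in wild-type rats, short of 1.5-fold in both.

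Among the enzymes, Mmp12, the macrophage elastase, had raw intensities of 500.69 without and 195.62 with luteolin in transgenic rats, and 259.38 without and 177.93 with it in wild-type rats. Its log2 levels were 8.85, 7.89, 8.22 and 7.46, again with both luteolin arrays lowest. The luteolin ratio was -0.96 in transgenic rats, 1.94-fold lower, and -0.76 in wild-type rats, 1.695-fold lower.

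Mmp27, a relative of the stromelysins, had raw intensities of 319.09 without and 138.29 with luteolin in transgenic rats, and 200.02 without and 115.22 with it in wild-type rats. The log2 levels were 8.20, 7.40, 7.86 and 6.93. It was the gene of this family with the lowest luteolin ratio in wild-type rats, -0.94 or 1.92-fold lower, and its ratio in transgenic rats was -0.80 or 1.74-fold lower.

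Mmp14, the membrane-anchored enzyme that cleaves collagen and activates proMMP-2, stood apart from these. Its raw intensities were 261.41 without and 232.65 with luteolin in transgenic rats, and 259.34 without and 296.73 with it in wild-type rats, well above background on every array. Its log2 levels of 7.93, 8.13, 8.22 and 8.13 spanned only 0.29. The luteolin ratio was 0.20 in transgenic rats and -0.09 in wild-type rats, and both signs turned with median centring and with the authors' normalized values.

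Mmp9, a gelatinase made by neutrophils and macrophages, was close to background, with raw intensities of 51.56 without and 41.93 with luteolin in transgenic rats, and 41.55 without and 45.72 with it in wild-type rats, or 1.10 to 1.295 times the background constant. Its luteolin ratios were -0.13 in transgenic and 0.05 in wild-type rats. With the authors' values, which have no offset, they were -1.48 and 0.68, both past 1.5-fold, and centred they were -1.22 and 0.49. The size of its ratios is therefore not settled by these arrays. Mmp13, the main interstitial collagenase of rodents, gave 42.01 on the transgenic array, where it was above background, and 38.35, 38.21 and 39.24 on the others (transgenic with luteolin, then wild type without and with it), where it was not. It therefore has no measured ratio, only a bound of at least 1.001-fold lower with luteolin in transgenic rats.

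The probe described as an MMP-2 fragment, an enzyme also known as gelatinase A, was chosen by its description after the symbol search had failed. It read 120.21 without and 58.42 with luteolin in transgenic rats, and 62.88 without and 68.73 with it in wild-type rats. Only the transgenic array without luteolin stood out. Its luteolin ratio was -0.68 in transgenic rats and -0.02 in wild-type rats, unlike Timp1, Timp2, Mmp12 and Mmp27 in wild-type rats. With the authors' values these ratios were -1.83 and 0.10.

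**Figure D1:**
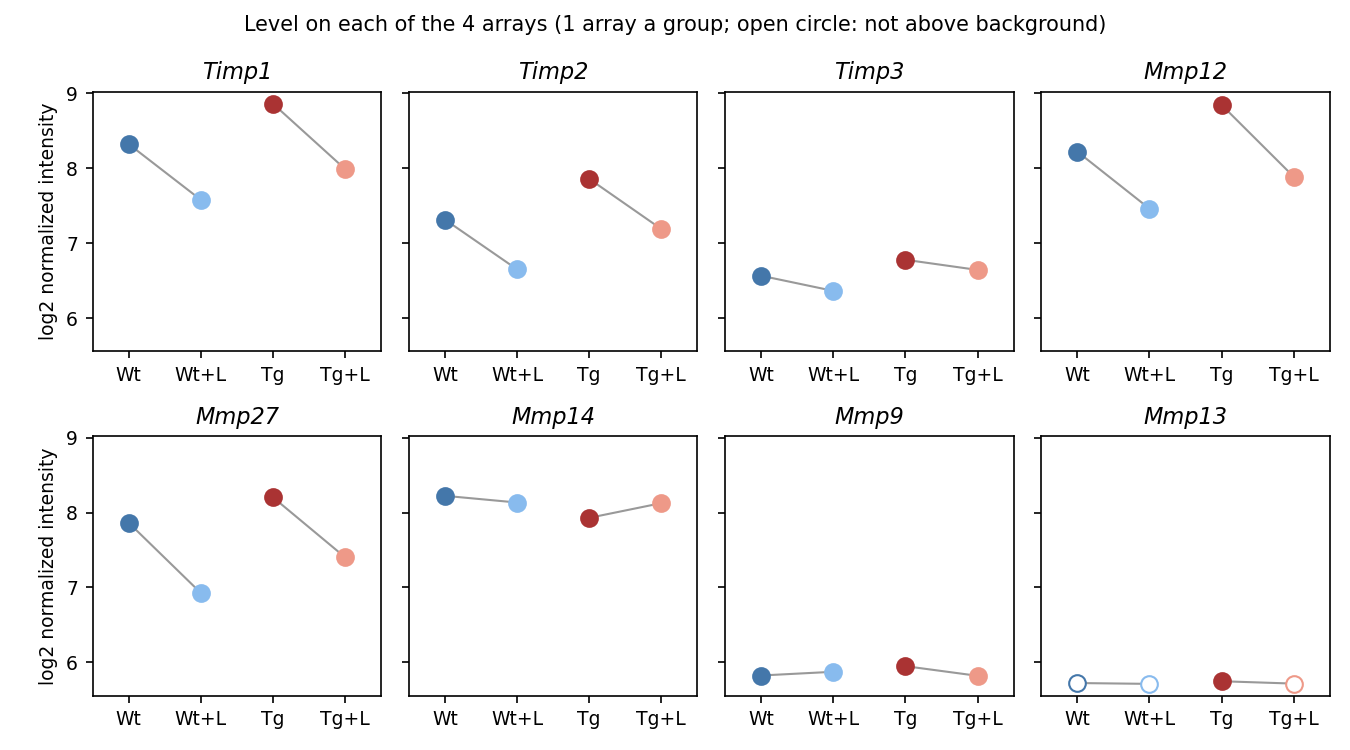
Each panel shows the log2 normalized intensity of 1 gene (y axis, same scale in all panels) on the 4 arrays (x axis: Wt wild type, Wt+L wild type with luteolin, Tg transgenic, Tg+L transgenic with luteolin), 1 point per array, with a line joining the 2 arrays of a genotype and an open circle where the probe was not above background. Timp1, Timp2, Mmp12 and Mmp27 are lower with luteolin in both genotypes, from 8.86 to 7.99 and from 8.32 to 7.58 for Timp1, while Mmp14 spans 0.29 and Mmp9 and Mmp13 lie near background.

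The first comparison asked how luteolin in the diet related to these genes in transgenic rats. Of the 7 genes compared, 6 were lower with luteolin, 4 of them by 1.5-fold or more (Timp1, Timp2, Mmp12 and Mmp27), and none was higher by that much. Among all 14336 genes compared, 1.03% were lower and 0.488% higher by 1.5-fold or more. With median centring, 26 genes were higher and 454 lower by that size in place of 70 and 147, and with the authors' values 225 and 2676. The median log2 ratio of the 7 genes was -0.67, and that of all genes was 0.01. From the lowest ratio upward, Mmp12 ranked 31st, Timp1 46th, Mmp27 56th and Timp2 102nd of all genes. The genes were listed with earlier results of these data known, so setting them beside all genes is no test of the family. Of the other Mmp genes, described below, none of 9 was lower by 1.5-fold.

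In wild-type rats the same question gave the same 4 genes. There 6 of 7 genes were lower and 4 by 1.5-fold or more, again with none higher by that size. Over all 14804 genes compared, 0.378% were lower and 0.297% higher by 1.5-fold or more. With median centring, 320 genes were higher and 23 lower in place of 44 and 56, and with the authors' values 1489 and 354. The median of the 7 genes was -0.67 and that of all genes 0.00. Mmp27 ranked 17th from the lowest, Mmp12 25th, Timp1 27th and Timp2 37th. Under median centring Mmp27 (-0.79) alone stayed past 1.5-fold, while Timp1 (-0.55), Timp2 (-0.54) and Mmp12 (-0.57) lay just short of it. The limit on how the genes were listed holds here as well, and none of 10 other Mmp genes was lower by 1.5-fold.

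The luteolin comparisons of the 2 genotypes share no array. In both of them, 14 of 14133 genes above background on all arrays (0.0991%) were lower by 1.5-fold or more, and 4 of these 14 were Timp1, Timp2, Mmp12 and Mmp27. That count is of the main setting, and the choice of the listed genes limits it too. Under median centring Timp1 (-0.55), Timp2 (-0.54) and Mmp12 (-0.57) fell short in wild-type rats, and of the 4 only Mmp27 passed in both genotypes. The difference between the genotypes' luteolin ratios was -0.13 for Timp1, -0.01 for Timp2, -0.20 for Mmp12 and 0.14 for Mmp27, and it cannot be tested with 1 array per group. Among the other 10 genes, named here after their values were seen, were the placental glutathione transferase Gstp1, the aldo-keto reductase Akr1b8, matrix Gla protein (Mgp), the intermediate filament gene Vim and the calcium-binding protein gene S100a6.

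**Figure D2:**
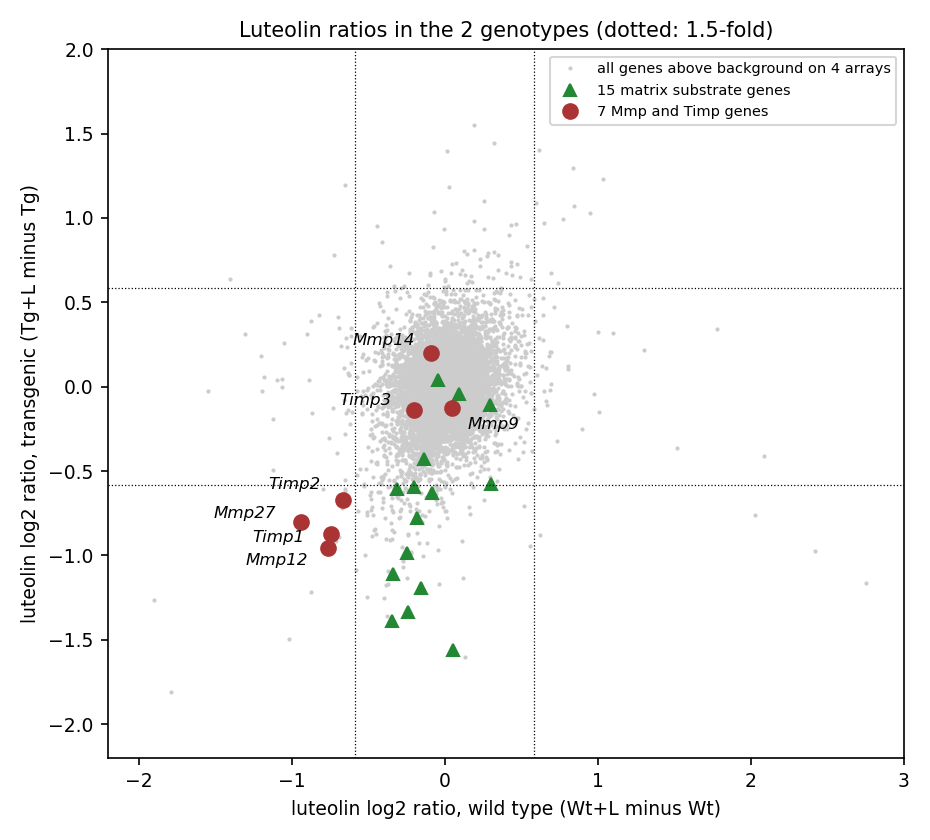
The log2 ratio with luteolin in wild-type rats (x axis) is plotted against that in transgenic rats (y axis) for genes above background on all 4 arrays (grey points), 15 matrix substrate genes (green triangles) and 7 Mmp and Timp genes (red circles), with dotted lines at 1.5-fold. Timp1, Timp2, Mmp12 and Mmp27 lie past 1.5-fold below 0 on both axes, at -0.74 and -0.87 for Timp1, whereas the matrix genes spread along the transgenic axis, with Col3a1 at 0.06 and -1.56.

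To set luteolin against an error estimate, an additive limma model averaged its ratio over both genotypes, with 1 residual degree of freedom per gene. The average was -0.87 for Mmp27 (SE 0.057), -0.86 for Mmp12 (SE 0.072), -0.81 for Timp1 (SE 0.056) and -0.67 for Timp2 (SE 0.040), and the 4 genes each had a Benjamini-Hochberg adjusted p = 0.561 over all genes in limma's test. Timp3 had a mean of -0.17 (SE 0.045, adjusted p = 0.562 by limma). Mmp14 (0.05) and Mmp9 (-0.04) had means below their standard errors of 0.095 and 0.067. Over all 14133 genes, 0% (0 genes) passed an adjusted p of 0.05, while 1215 genes, 5 of them in this family, had an unadjusted p under 0.05. With an intensity trend in limma's variance prior, Mmp27 (adjusted p = 0.000161), Mmp12 (0.000422), Timp1 (0.000834) and Timp2 (0.00125) passed over all genes, among 328 genes that did. With a stricter filter on dim probes they passed as well (adjusted p = 0.0111 to 0.0359 by limma), and with the authors' values Mmp27 passed (0.0379). The adjusted p of these genes thus differed between settings, and the cause was not tested.

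**Figure D3:**
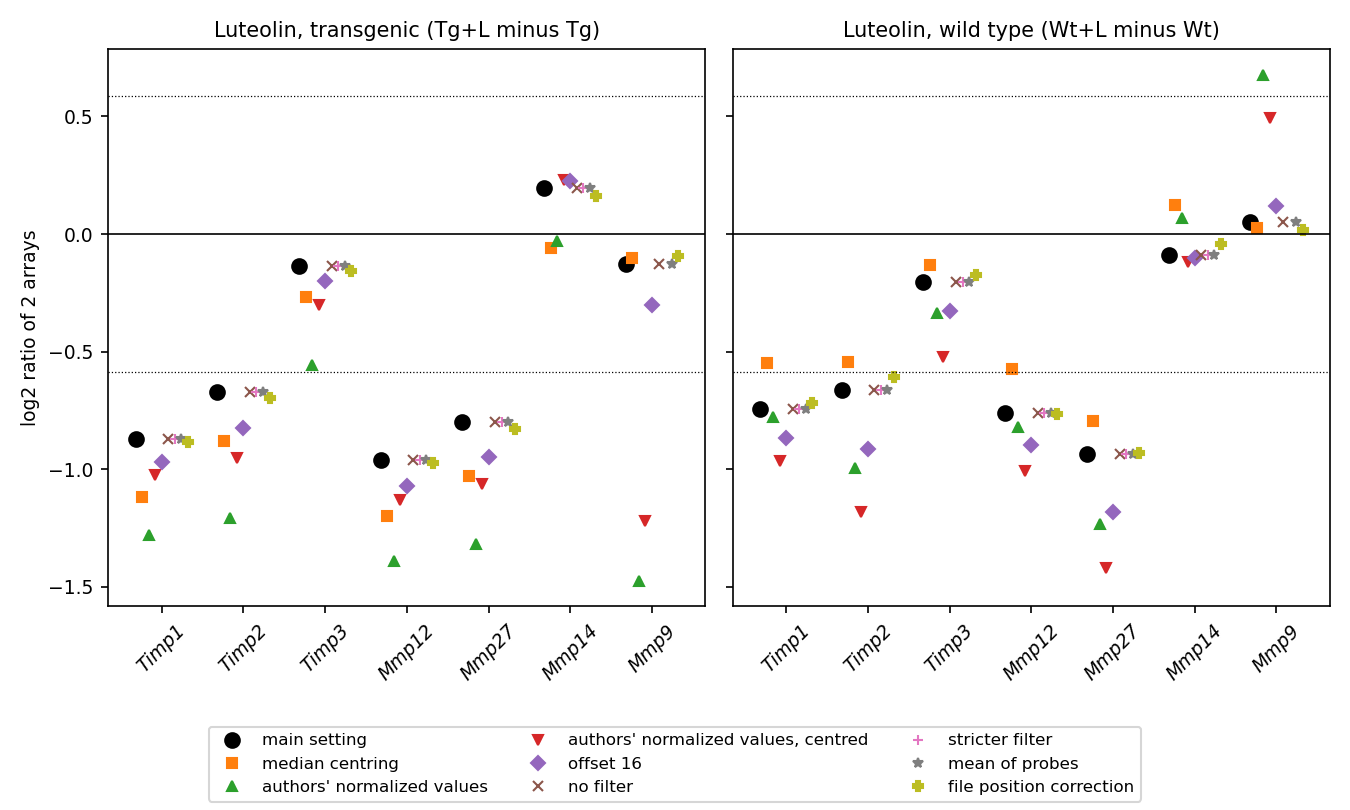
For each of the 7 genes (x axis) the log2 ratio with luteolin (y axis) is shown under the main setting (black circle) and 8 alternatives (other symbols; 7 for Mmp9, which the stricter filter leaves out), in transgenic rats on the left and wild-type rats on the right, with dotted lines at 1.5-fold. The ratios of Timp1, Timp2, Mmp12 and Mmp27 are below 0 under every setting shown, from -1.39 to -0.67 on the left and from -1.42 to -0.54 on the right, while those of Mmp14 lie on both sides of 0.

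The next comparison set transgenic against wild-type rats on the diet without luteolin. Here 6 of 7 genes were higher in the transgenic liver, Mmp12 alone by 1.5-fold or more (0.62, 1.54-fold). Timp2 (0.54) and Timp1 (0.54) came next, at 1.46-fold and 1.45-fold, followed by Mmp27 (0.34), Timp3 (0.21) and Mmp9 (0.12). Mmp14 was lower (-0.29). Over all 14731 genes, 0.686% were higher and 0.387% lower by 1.5-fold or more (63.9% of the genes past that size were higher, against 91.8% with median centring). The count of 1 became 2 to 4 under 5 of 8 alternatives. With the authors' values Mmp9 had the highest ratio of the family, 1.17 (1.14 centred), followed by Timp2 at 0.76, Mmp12 at 0.70 and Timp1 at 0.60. This comparison uses the same transgenic array as that of luteolin in transgenic rats, so the 2 sets of ratios are not independent.

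With luteolin in both diets, no gene of the family differed by 1.5-fold between the genotypes. Timp2 was higher in the transgenic liver by a log2 ratio of 0.54, Mmp27 by 0.48, Mmp12 by 0.43, Timp1 by 0.41 and Timp3 by 0.28, while Mmp14 (-0.01) and Mmp9 (-0.05) were close to 0. Over all 14390 genes, 0.431% were higher and 0.445% lower by 1.5-fold or more (62 and 64 genes, 23 and 555 with median centring, 142 and 4327 with the authors' values). The median of the 7 genes was 0.41, against 0.00 for all genes. With the authors' values Mmp9 was lower in the transgenic liver by 1.98-fold (-0.99) and Mmp14 was at -0.46. Those values have a median shift of -0.42 over all genes in this comparison. Relative to that shift Timp2 (0.97), Mmp27 (0.75) and Timp3 (0.69) passed 1.5-fold, and Mmp9 (-0.57) and Mmp14 (-0.04) did not.

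The additive model put the mean genotype difference over both diets at 0.54 for Timp2 (SE 0.040), 0.52 for Mmp12 (SE 0.072), 0.47 for Timp1 (SE 0.056), 0.41 for Mmp27 (SE 0.057) and 0.25 for Timp3 (SE 0.045). Each had an adjusted p = 0.686 in limma's test over all genes. Across all 14133 genes 0% (0 genes) passed, and 1019 had an unadjusted p under 0.05. With an intensity trend Timp2 passed (adjusted p = 0.0152 by limma) and Mmp12 narrowly did not (0.0533).

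**Figure D4:**
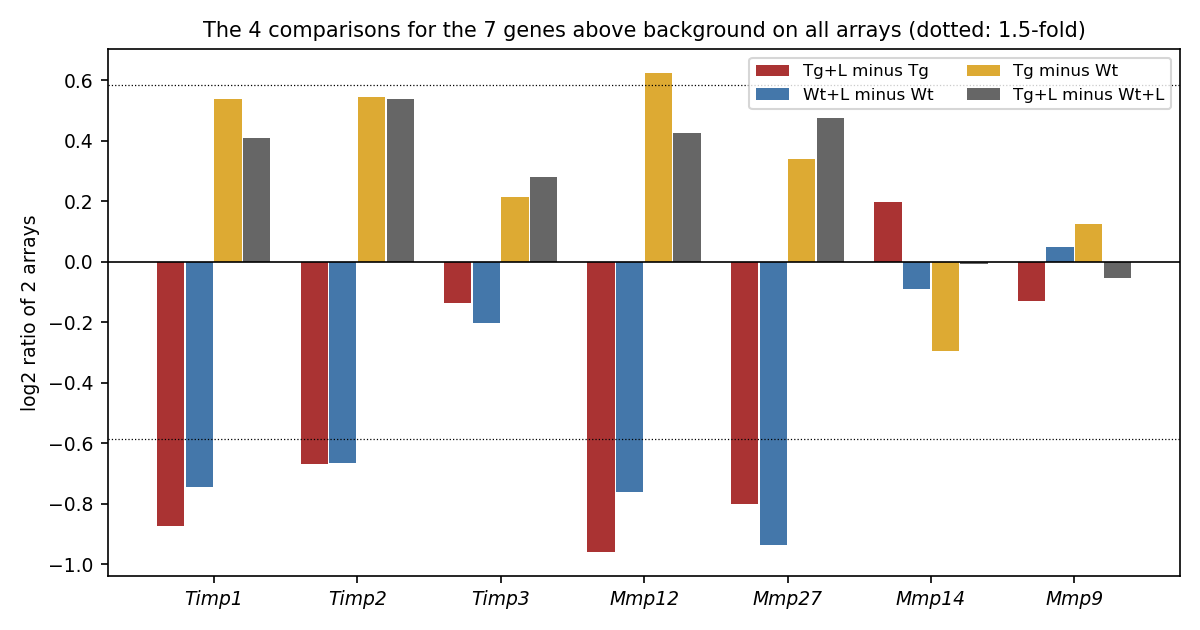
Bars give the log2 ratio of 2 arrays (y axis, from 0) for 7 genes (x axis) in the 4 comparisons, red for luteolin in transgenic rats, blue for luteolin in wild-type rats, yellow for transgenic against wild type without luteolin and grey for the same with luteolin, with dotted lines at 1.5-fold and no error bars since each group had 1 array. For Timp1, Timp2, Mmp12 and Mmp27 both luteolin bars reach past 1.5-fold below 0 and both genotype bars lie above 0.3.

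These 4 genes ordered the arrays alike, from transgenic over wild type and transgenic luteolin to wild-type luteolin. That order was found in 4 of the 7 genes and in 979 of 14133 genes (6.93%). The 4 genes were picked by their luteolin ratios, which already place the luteolin arrays low, so their shared order is no separate result. Of the 14 genes lower by 1.5-fold or more with luteolin in both genotypes, 11 had that order. With 1 array per group it has no error, and neighbours in it cannot be told apart beyond their spread. Of 11373 named genes, those whose centred levels on the 4 arrays came closest to Timp1 were Vim, S100a6 and Mmp12, with root mean square differences of 0.018, 0.031 and 0.040 on the log2 scale. For Mmp12 they were Vim (0.035), S100a6 (0.035) and Timp1 (0.040). With 4 arrays and this many genes, close neighbours can be found for many patterns, and the spread of these differences was not examined. Vim, S100a6, Mmp12 and Timp1 are all among the 14 genes above, so their likeness is no separate result.

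Mmp12, Mmp13 and Mmp27 belong to a row of 10 neighbouring metalloproteinase genes on rat chromosome 8 in the RefSeq annotation, in the order Mmp13, Mmp12, Mmp1b, Mmp3, Mmp1, Mmp10, Mmp8, Mmp27, Mmp20 and Mmp7. Of the 6 above background on all arrays, Mmp12 and Mmp27 were those past 1.5-fold with luteolin. Mmp10 and Mmp20, which lie near Mmp27, had ratios of 0.04 and -0.01 in transgenic rats and of 0.00 and -0.01 in wild-type rats, and Mmp3 had -0.06 and 0.01. Mmp10, Mmp20 and Mmp3 were all near background (log2 levels of 5.76 to 5.89), where the offset pulls ratios toward 0. Mmp7, matrilysin, was the next lowest of the row at -0.32 in transgenic and -0.29 in wild-type rats.

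Beyond these genes, 15 of 16 other Mmp genes listed were on the array and 9 could be compared for luteolin in transgenic rats. Of these 7 were lower and none by 1.5-fold, with a median of -0.02 and Mmp23 lowest at -0.49. In wild-type rats 7 of 10 were lower, none by 1.5-fold, with a median of -0.01. Most of these probes were dim, which pulls their ratios toward 0. Among the relatives with ADAM domains, 1 of 12 was lower by 1.5-fold in transgenic rats, Adamts2, the enzyme that trims procollagen ends (-0.72, and -0.19 in wild type), and none of 13 in wild-type rats.

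Of other inhibitors, A2m, which traps proteases in plasma, had luteolin ratios of -0.76 in transgenic and -0.47 in wild-type rats. Reck, a membrane-anchored inhibitor, was at -0.12 and 0.02, and Timp4 was at 0.01 and 0.00. Both were near background, with log2 levels of 5.82 to 5.97 for Reck, where the offset pulls ratios toward 0. In the plasminogen system, which activates several metalloproteinases, 1 of 7 genes passed 1.5-fold with luteolin in transgenic rats. This was Serpine2, a protease inhibitor, at -1.17, and in wild-type rats it was at -0.04, when none of 7 passed. None of 4 genes for convertases and the Mmp inducer Bsg passed in transgenic rats, nor any of 3 in wild-type rats. Of the AP-1 and cytokine genes, none of 10 and none of 9 passed 1.5-fold. Several of these probes were dim, which pulls their ratios toward 0. Tnf had log2 levels of 5.84 to 5.89, Tgfb1 of 5.97 to 6.13 and Fos of 6.02 to 6.18, while Jun was brighter at 7.63 to 7.79. The lowest ratio was that of Tgfb3, a TGF-beta ligand, at -0.50 in transgenic rats and -0.02 in wild-type rats. Others were Jun at 0.03 and 0.16, Fos at -0.03 and -0.02, and Tgfb1 at -0.14 and 0.07. Of 5 cathepsins, Ctsk, a collagen-cutting lysosomal enzyme, was lower by 1.5-fold in transgenic rats (-0.59) and at -0.17 in wild-type rats, where none passed.

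The substrates of these enzymes gave another picture in wild-type rats. Of 15 matrix genes, 10 were lower by 1.5-fold or more with luteolin in transgenic rats, with a median of -0.63, close to the -0.67 of the Mmp and Timp genes. In wild-type rats none of the 15 passed 1.5-fold, and their median was -0.15 against -0.67. The 6 lowest in transgenic rats were the fibrillar collagen genes Col3a1 (-1.56), Col1a2 (-1.39) and Col1a1 (-1.33), the microfibril gene Fbn1 (-1.20), Col6a1 (-1.11) and the basement membrane collagen gene Col4a1 (-0.98). In wild-type rats these stood at 0.06, -0.34, -0.24, -0.15, -0.34 and -0.25 in the same order. Between the genotypes, 8 of 15 matrix genes were higher by 1.5-fold or more in the transgenic liver without luteolin (median 0.68) and none with it (median 0.02), where the Mmp and Timp genes had medians of 0.34 and 0.41. The difference between the lists was not tested.

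Marker genes of other cell types moved with some of these ratios. With luteolin in transgenic rats, 8 of 9 stellate cell and myofibroblast markers were lower, Tagln (-0.87) and Pdgfrb (-0.69) by 1.5-fold or more, and their summed linear intensity, offset included, went from 1351 to 999 (708 to 352 in the authors' values, which hold no offset and leave out blank spots). In wild-type rats 5 of 8 were lower, none by 1.5-fold, and the sum went from 1110 to 1009 (511 to 485 in the authors' values). Of 7 macrophage markers, 4 were lower in transgenic rats, Gpnmb (-1.17), Trem2 (-0.76) and Cd68 (-0.67) by 1.5-fold or more, whereas the Kupffer cell marker Clec4f was at 0.24. Their sums were 5554 and 3478 (authors' values 3968 and 2083). Gpnmb carried most of that difference, and the other 6 markers summed to 2198 and 1985 (1472 and 1118). In wild-type rats 6 of 7 macrophage markers were lower, none by 1.5-fold, Trem2 the lowest at -0.51. There the sums were 3611 and 3064 (2589 and 2525), and 1910 and 1750 without Gpnmb (1267 and 1331 in the authors' values).

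Cholangiocyte markers were lower in 6 of 7 members with luteolin in transgenic rats (Epcam at -0.73, sums 1201 and 874, authors' values 663 and 337) and in 7 of 7 in wild-type rats (Krt19 at -0.65, sums 971 and 757, authors' values 484 and 359). Apart from Lyve1 and Nkg7, the neutrophil, endothelial and T and NK cell markers were dim (log2 levels up to 6.46), which pulls their ratios toward 0. Quantile normalization gave Alb the same level, 15.49, on every array but that of transgenic rats with luteolin (15.62). Within these limits, no neutrophil, endothelial, T and NK cell or hepatocyte marker passed 1.5-fold with luteolin in either genotype. Their sums in transgenic rats were 515 and 519, 624 and 589, 535 and 523, and 112248 and 119452 without and with luteolin. In wild-type rats these were 518 and 497, 619 and 588, 503 and 530, and 117542 and 116329. The direction of several of these sums depended on the scaling. In the authors' values they were 82 and 68, 252 and 184, 139 and 106, and 89533 and 81638 in transgenic rats, and 79 and 71, 244 and 248, 109 and 147, and 92565 and 105019 in wild-type rats. All stellate, macrophage and cholangiocyte markers measured were above background on all arrays except 1 stellate marker, Postn, and of the neutrophil markers Camp was above background on none. Several stellate and cholangiocyte markers were dim as well, which pulls their ratios toward 0. These were Pdgfra, Lrat, Postn, Des and Thy1 (log2 levels up to 6.38), and Krt7, Cftr, Sox9 and Cldn4 (up to 6.32). In the genotype comparison without luteolin, Gpnmb (0.98), Tagln (0.70) and Cd68 (0.61) were higher by 1.5-fold or more in the transgenic liver, and with luteolin the cholangiocyte marker Cldn7 was (0.67). All 7 cholangiocyte markers were higher in the transgenic liver on both diets. The part of these cell types in the ratios of Timp1, Timp2, Mmp12 and Mmp27 was not tested.

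**Figure D5:**
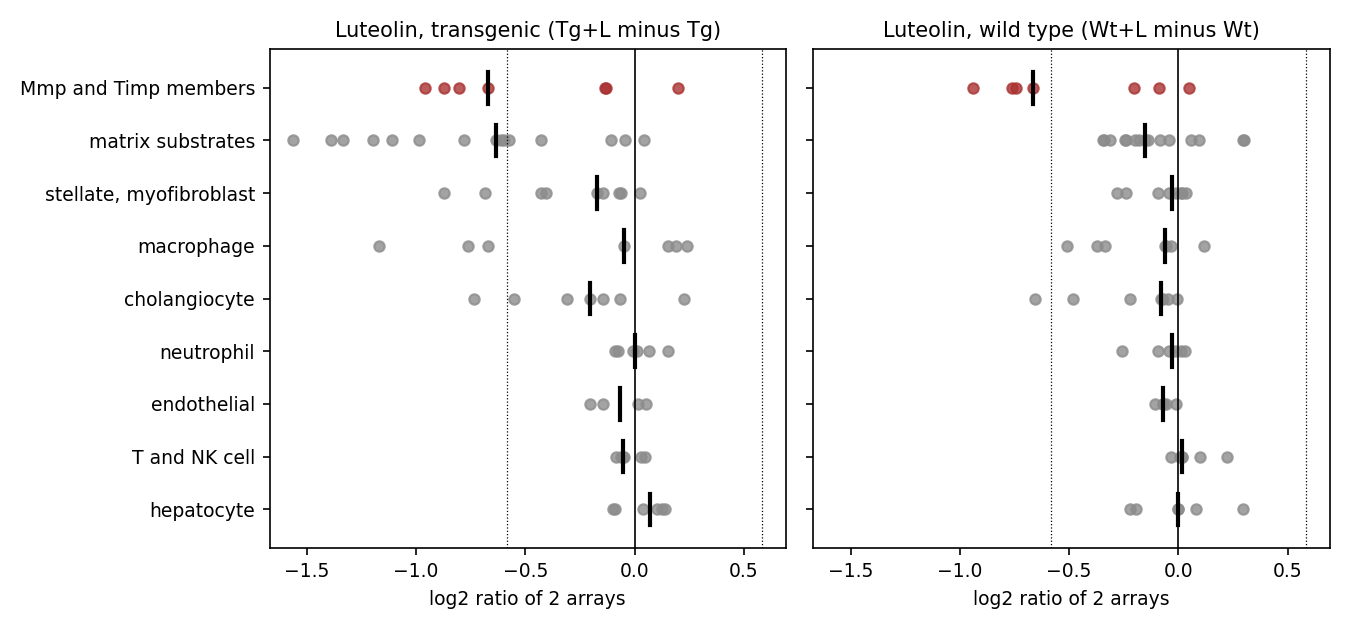
Each point is the log2 ratio with luteolin (x axis) of 1 gene in a list (rows), in transgenic rats on the left and wild-type rats on the right, with a black bar at the list's median and dotted lines at 1.5-fold. The Mmp and Timp genes have a median of -0.67 in both panels, while the matrix substrates have -0.63 on the left and -0.15 on the right, and the cell type markers' medians lie between -0.20 and 0.07. Many of the cell type markers were dim, which pulls their ratios toward 0.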

How the data were processed

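Amplified liver RNA carried the dye Cy5, per the labels' protocols, and each sample had a 1-colour array. Per the file headers, the authors deposited for each array a raw intensity, a background-subtracted intensity and a globally normalized intensity. Set against each other, the second was the raw value less 1 constant per array, blank where not kept, and the third was scaled to a median of 25. The series table holds the third, rounded, and was not used for results. Scanner and software: not given in the sources used here.

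Here the raw values and constants were corrected with normexp (offset 50), taken to log2 and quantile normalized (R 4.3.3, limma 3.58.1). The offset pulls ratios of dim probes toward 0. The 2 spots with a bad quality mark were left out. A probe counted as above background where the authors kept a background-subtracted value. Probes were named through RefSeq accession, Entrez identifier or symbol, and the brightest probe stood for a gene with several. With 1 array per group, arrays limit precision, and p-values come only from a limma model (genotype plus luteolin, lmFit and eBayes, Benjamini-Hochberg over all genes) with 1 residual degree of freedom. The code was first run on simulated data with planted differences, which does not test the p-values of these arrays. The model's residual holds the interaction and the spread between samples, technical spread included.

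Named were all members, list genes at 1.5-fold or more (at most 6 per list, the lowest ratios first, with others as examples), and the 3 genes nearest in pattern to Timp1 and Mmp12. Members and lists were chosen with earlier results of these data known. Alternatives were median centring, the authors' values with and without centring, an offset of 16, no filter, a stricter filter (1.5 times background), the mean of probes, a running median over file rows and an intensity trend.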

Additional observations from a re-analysis of the deposited data

Results flagged for a closer look

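The luteolin ratios of Mmp9 and Mmp14 had opposite signs in the 2 genotypes. For Mmp9 the log2 ratio in transgenic rats less that in wild-type rats was -0.18, at a signal of at most 1.295 times background, and its ratios were past 1.5-fold in both genotypes with the authors' values. For Mmp14 it was 0.29, and both of its signs turned under 2 of 8 alternatives. Neither difference was tested, since 1 array per group leaves no residual for it.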

How the results depend on the processing

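No paired analysis was possible because each group had 1 array, and for the same reason no replicate could be left out. A turned sign was counted only where the main ratio was 1.5-fold or more. This held for the luteolin ratios of Timp1, Timp2, Mmp12 and Mmp27 in both genotypes, and for Mmp12 between genotypes without luteolin. None of these ratios turned its sign across 8 alternatives. The sign changes of Mmp14 fell outside that count, since its ratios were smaller. Of 220 recomputed ratios of the family, 22 crossed the 1.5-fold line in either direction. Dropping the filter, the stricter filter and the mean of probes returned the main ratio wherever they gave one, so they could move none. For luteolin in transgenic rats the count of 4 lower genes was 4 or 5 throughout. In wild-type rats it was 1 in place of 4 with median centring and 4 in the other 7 alternatives, and with the authors' values 1 gene (Mmp9, 0.68) was higher in place of 0. For transgenic against wild type without luteolin, the count of 1 higher gene was 3 with median centring, 4 with the authors' values, 3 with those centred, 3 with the offset of 16 and 2 with the file position correction. With luteolin, the count of 0 higher was 3 with the authors' values centred and 2 with the offset of 16, and with the authors' values 1 gene (Mmp9, -0.99) was lower in place of 0. The authors' values carry median shifts over all genes of -0.26 and 0.19 for luteolin in transgenic and wild-type rats. In the additive model, the 0 genes passing for luteolin became 79 with the authors' values, 1 with the offset of 16, 26 with the stricter filter and 328 with an intensity trend, and the 0 for genotype became 26 with the authors' values, 5 with the stricter filter and 154 with the trend. The cause of these shifts was not tested. Signal over background limits Mmp9 and Mmp13 most, and Mmp9 ranged from -1.48 to -0.09 for luteolin in transgenic rats.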
